A study of Homo sapiens with 14 samples.

Results

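The ZBTB16 locus was taken as the gene's RefSeq span on GRCh38, chr11:114059711-114256770, with 50 kb on each side, and every region of 4 chromatin immunoprecipitation sequencing (ChIP-seq) peak lists that reached into it was counted. This window of 297.06 kb held 21 of 38933 progesterone receptor (PR) regions under vehicle and 50 of 111515 under progesterone (P4). It held 12 of 29161 POLR3A regions under vehicle and 24 of 47904 under P4. The cells were T47D, an established breast cancer line positive for oestrogen and progesterone receptors, given ethanol (Veh) or P4 for 1 h. Each of the 4 combinations of antibody and treatment had 3 libraries and 1 deposited list, and the series also has 2 pooled inputs. All libraries came from this single line, with no change of genotype, and gene expression was not measured, so the cell type could not be checked against marker genes. With 1 list per group, no difference below could be set against the spread between replicates, and no test was made.

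ZBTB16, also called PLZF, encodes a transcriptional repressor with a BTB domain and zinc fingers that recruits corepressor and histone deacetylase complexes. It is known as a gene that progestins, glucocorticoids and androgens switch on, and in the endometrium it takes part in the response of stromal cells to progesterone. PR is a nuclear receptor that is activated by hormone and binds DNA at response elements built from a pair of half-sites. The list under vehicle, without added P4, held PR regions too, 38933 of them. POLR3A is the catalytic subunit of RNA polymerase III, the enzyme that makes transfer RNAs and other short RNAs. ZBTB16 itself is a protein-coding gene of RNA polymerase II.

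ZBTB16 is 197.06 kb long and is read towards higher coordinates, so that its 5′ end lies at position 114059711. Positions below are the distance of a region's summit from that end, with negative values upstream. The window also holds NNMT, the gene for nicotinamide N-methyltransferase, which starts 1036 bp beyond the end of ZBTB16, and the non-coding RNA genes LOC124902759, LOC124902760 and LOC124902761 upstream. Exon boundaries were not used here, so regions inside the gene are not assigned to exons or introns.

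One RefSeq promoter in the window was reached by regions of these lists, that of LOC124902760, and it is shown because PR regions of both treatments reached it. It covers chr11:114018028-114018327 (GRCh38.p14, minus strand), from 250 bases before to 50 bases after the start of the gene, and is written 5′ to 3′ with the 76 bases inside the PR vehicle region in capitals. The PR region under P4 covered all 300 bases.
LOC124902760 promoter: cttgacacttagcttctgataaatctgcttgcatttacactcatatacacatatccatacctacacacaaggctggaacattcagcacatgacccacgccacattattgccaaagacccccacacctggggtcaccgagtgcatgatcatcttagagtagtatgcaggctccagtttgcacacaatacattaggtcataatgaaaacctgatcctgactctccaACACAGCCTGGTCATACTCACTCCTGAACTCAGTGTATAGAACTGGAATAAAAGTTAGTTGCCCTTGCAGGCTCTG
The summits lay just inside the gene, 84 bp from its 5′ end under vehicle and 110 bp under P4. Their −log10 q, the authors' significance score for a region, was 5.26 and 36.7. Their fold enrichment over background was 3.71 and 8.84. The promoter held neither the half-site AGAACA nor its reverse complement TGTTCT, letters that 14.8% of 34789 RefSeq promoters hold on either strand. Both PR summits lay outside these 300 bases, so the letters at the summits were not searched. The facing pair of these half-sites with 3 bases between them was in 1 of those promoters, and the looser pair GNACA and TGTNC in 0.391%. Neither pair was in the promoter of LOC124902760. PR regions overlapped 6.35% of all these promoters under vehicle and 19.0% under P4. The promoters of LOC124902759 and LOC124902761 were reached by no region of the 4 lists.

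The strongest PR region of the locus lay deep inside ZBTB16, about 120 kb from the 5′ end. Under vehicle it covered chr11:114179046-114179867, with its summit at 119.706 kb, a −log10 q of 533.6 and a fold enrichment of 70.0 over background, which is also the authors' value. Under P4 it covered chr11:114178441-114181138, with its summit at 119.713 kb, a −log10 q of 508.0 and a fold enrichment of 63.9. It ranked 3 of 38933 and 3 of 111515 by −log10 q, and 5 and 28 by fold. The region was called 822 bp wide under vehicle and 2698 bp wide under P4, where it ranked 45 by width. The wide P4 region took in a further vehicle region with its summit at 120.966 kb and a −log10 q of 8.61. Among all protein-coding genes, the window of 2 genes held a stronger PR region under P4 (DERA and STRAP, which share it) and that of 3 genes under vehicle (MAN2B2, MRFAP1 and MRFAP1L2, which share it). These scores place a region within its own list, and a higher value in one list is no measured change.

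A run of 4 more strong PR regions stood between 100 and 106 kb from the 5′ end, each called under both treatments. The summits at 103.271 kb under vehicle and 103.293 kb under P4 had −log10 q of 347.3 and 363.2, ranks 89 and 334 of their lists. The next region, with summits at 104.370 and 104.369 kb, had values of 262.0 and 351.7. The other 2 flanked this pair on either side. At 100.525 and 100.490 kb the values were 119.9 and 193.7, and at 105.841 and 105.796 kb they were 56.8 and 160.5. The last of these was 909 bp wide under vehicle and 1622 bp under P4. Together with the region near 120 kb, these 5 were all the regions of the window in the top 5% of the P4 list. Under vehicle 4 of them were in the top 5%, and the region at 105.841 kb lay at percentile 92.8, the share of other regions of its list with a lower −log10 q.

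**Figure D1:**
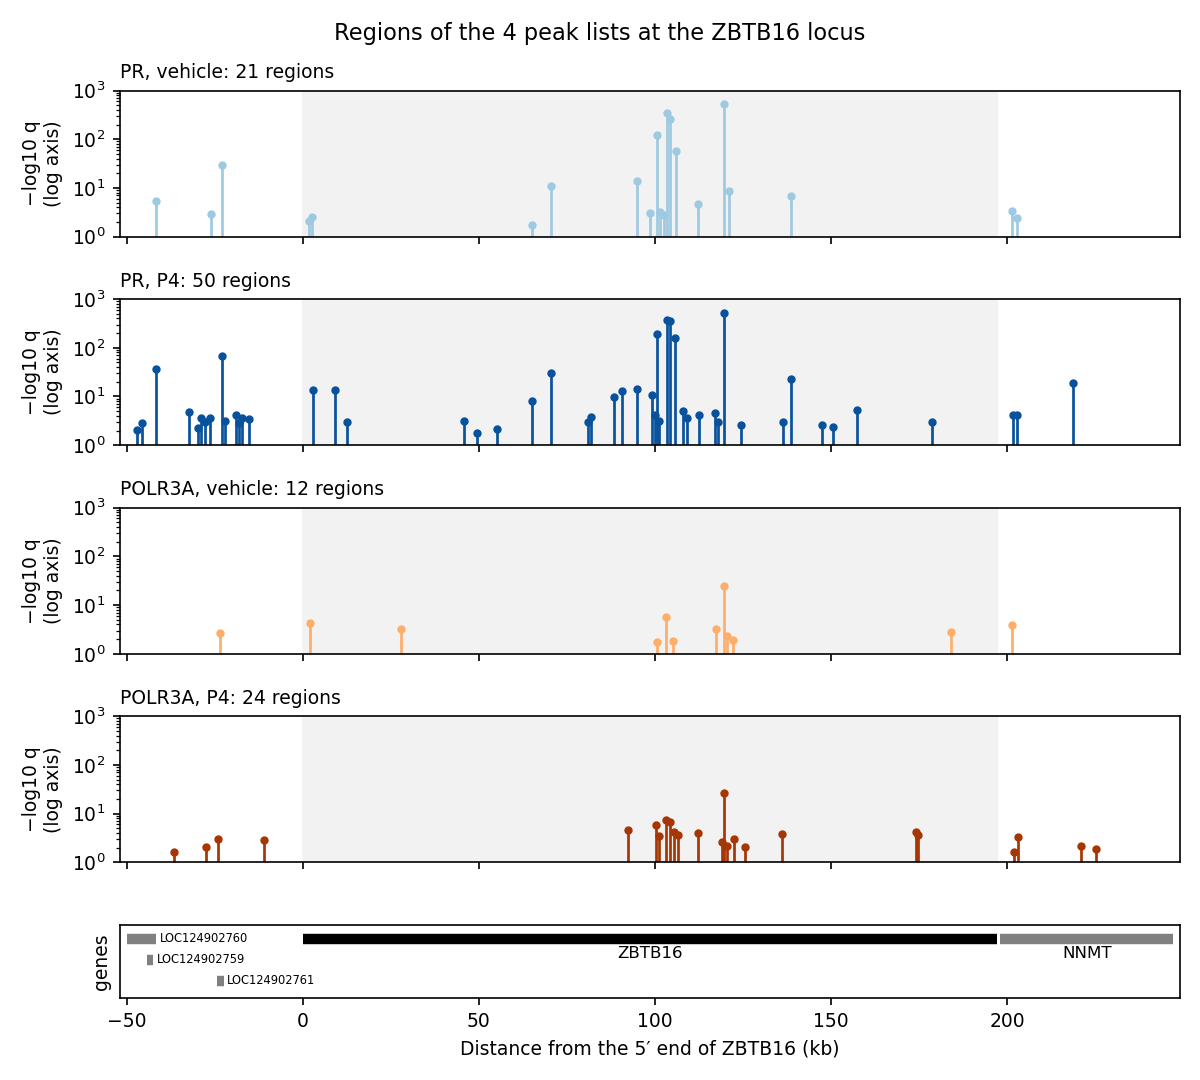
Summits of the 4 lists along the ZBTB16 window, as distance from the 5′ end in kb, with the authors' −log10 q as the height of each line on a log axis; the shaded span is ZBTB16 and the lowest panel shows the genes. The highest lines of all 4 lists stand near 120 kb, at 533.6 and 508.0 for PR and 24.2 and 26.4 for POLR3A.

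The stretch from 98 to 124 kb, whose limits were set after the positions had been seen, made up 8.75% of the window. It held 10 of the 21 PR regions under vehicle and 13 of the 50 under P4. For POLR3A it held 7 of 12 and 11 of 24. All regions of the window in the top 5% of any list were inside it. The median −log10 q of the window was 5.26 for PR under vehicle and 4.10 under P4, against 5.75 and 4.87 over the whole lists, and 31 of the 50 P4 regions lay in the lower 50% of their list, 6 of the 13 inside the stretch and 25 of the 37 outside it.

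**Figure D2:**
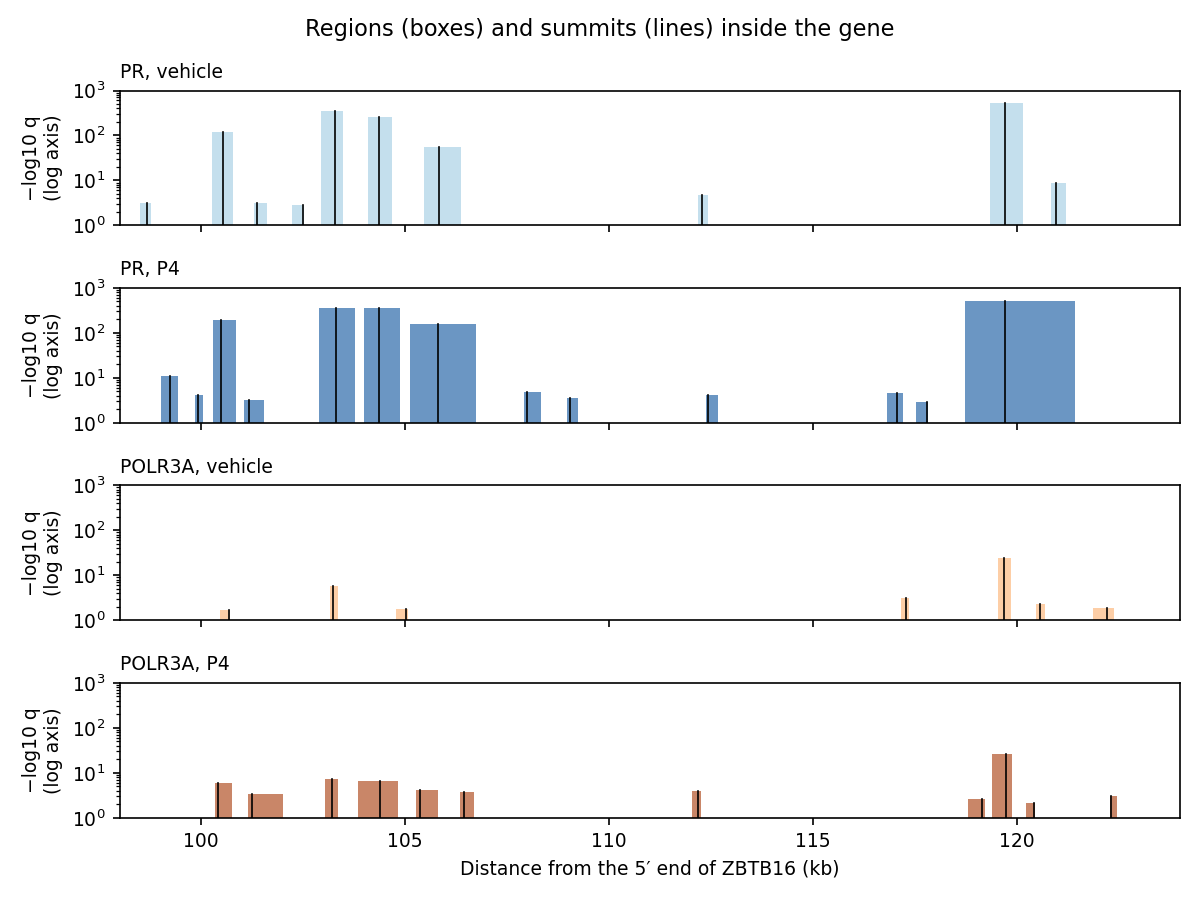
Regions between 98 and 124 kb from the 5′ end of ZBTB16, drawn as boxes from start to end with the summit as a black line and the authors' −log10 q as the height on a log axis, 1 panel per list. The PR box near 120 kb is 822 bp wide under vehicle and 2698 bp wide under P4, and the POLR3A summits at 119.701 and 119.727 kb lie inside it.

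Weaker PR regions lay along the rest of the locus. Of the 10 strongest under vehicle, 7 were in the gene between 95 and 121 kb, and the others were at −22.967, 70.414 and 138.599 kb. The region at −22.967 kb lay in LOC124902761 and had a −log10 q of 29.2, with its P4 partner at −22.964 kb and 69.0. The regions at 70.414 and 138.599 kb had values of 11.2 and 6.89, with P4 partners at 70.407 kb (30.3) and 138.563 kb (23.3). The vehicle region at 95.010 kb had a value of 14.1, and its P4 partner at 94.985 kb had 14.5. The 10 strongest regions under P4 were the 5 described above and those at −22.964, −41.744, 70.407, 138.563 and 218.830 kb. The last lay in NNMT, had a −log10 q of 18.9 and had no vehicle region.

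No region of any list had its summit within 1 kb of the 5′ end of ZBTB16. The nearest PR region was at 1.830 kb under vehicle (−log10 q 2.06), where the P4 list had none. A POLR3A region of the vehicle list, at 2.078 kb (4.33), overlapped it and was likewise without a P4 partner. The next PR region was at 2.705 kb under vehicle, with a value of 2.51, and at 2.761 kb under P4, with 13.3. A further P4 region stood at 9.122 kb (13.6) with no vehicle counterpart. The longest stretch without a PR summit ran from 138.599 to 201.308 kb under vehicle and from 12.639 to 45.749 kb under P4.

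The sites of each factor under P4 were then compared with those under vehicle. For PR, 17 of the 50 P4 regions, 34.0% (95% Wilson interval 22.4 to 47.8, counting error over regions only), overlapped a vehicle region by at least 1 bp, against 25.8% of the whole P4 list. In the other direction it was 18 of 21 vehicle regions, 85.7% (65.4 to 95.02), against 75.7%. Both intervals took in the share of the whole list. The 3 vehicle regions without a P4 partner, at 1.830, 98.677 and 102.499 kb, had −log10 q between 2.06 and 3.09. The 33 P4 regions without a vehicle partner had a median of 3.20 and a maximum of 18.9, while the 17 with one had a median of 23.3.

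The number of PR regions in the window was 2.38 times as high under P4 as under vehicle, and that of the whole list 2.86 times. For POLR3A the ratios were 2.00 and 1.64. The regions covered 8825 and 22630 bases for PR and 3337 and 9162 for POLR3A. With both PR lists cut to the length of the shorter one by −log10 q, the window held 21 regions under vehicle and 17 under P4, so that the higher P4 count was not seen at equal length. For POLR3A treated alike it held 12 and 15. Regions with a −log10 q of 10 or more numbered 8 of 21 and 15 of 50 for PR and 1 of 12 and 1 of 24 for POLR3A. Over the whole lists it was 30541 of 111515 for PR under P4. For PR under vehicle the whole list was not counted, but in it a −log10 q of 8.61 stood at percentile 63.2 and one of 11.2 at 70.4. The 8 of 21 regions were thus near the share of that list. For POLR3A it was 2561 of 29161 under vehicle and 2589 of 47904 under P4. The depth of the libraries is unknown, and depth and treatment cannot be told apart in the length of a list.

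Where both treatments gave PR regions, the summits stood at nearly the same place. Regions of the 4 lists that overlapped were merged into 65 sites. A site can therefore hold regions that do not overlap each other and are joined through a region of another list. PR was called under both treatments at 17 of the 65 sites, against 28446 of the 150886 merged sites of the genome, 18.9%. The summits of these 17 were between 1 and 395 bp apart, with a median of 35 bp. Over the 29484 vehicle regions of the whole list with a P4 partner, the median was 30 bp. At the 6 sites in the top 10% of the P4 list, the largest distance was 45 bp. The order of the sites by −log10 q was similar in both lists (Spearman's rho 0.88 over 17 sites, a description across sites of the same 2 lists).

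At 16 of the 17 sites the percentile within the list was higher under P4, as it was at 89.1% of the 28446 such sites of the genome. The median percentile of those genome sites was 60.8 under vehicle and 85.3 under P4. A percentile depends on the other regions of its list, and the P4 list was the longer, so a higher percentile is no measured change. Percentiles in lists of equal length were not compared. The strongest sites were near the top of both lists. The site near 120 kb was at percentile 99.995 under vehicle and 99.998 under P4. The site near 103 kb, at 99.77 and 99.70, was the one site of the 17 with a lower percentile under P4. The widest differences were at some of the sites that were weak under vehicle. A site near the top of a list has little room for a higher percentile. The PR site at 2.705 kb was at percentile 12.6 under vehicle and 77.7 under P4, and that at 65.007 kb at 2.68 and 67.2. Other weak sites differed less, with 21.6 and 27.2 at 101.363 kb and 17.4 and 35.5 at −26.024 kb.

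**Figure D3:**
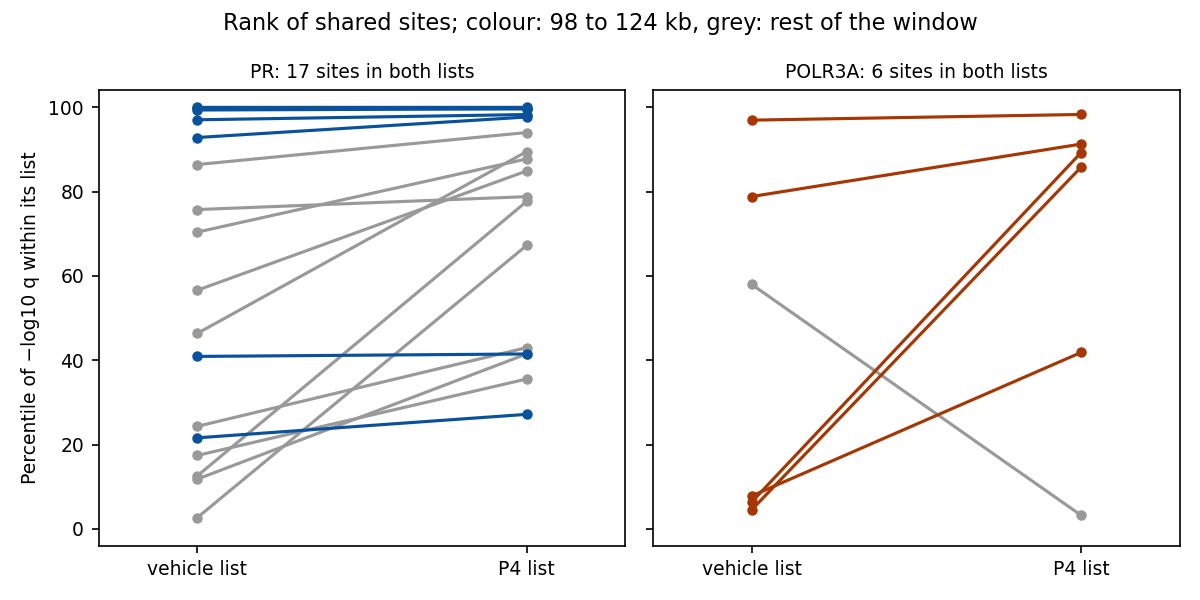
Percentile of −log10 q within its list for each site called under both treatments, with 1 line per site, 17 for PR and 6 for POLR3A; coloured lines are sites between 98 and 124 kb and grey lines the rest of the window. The PR percentile was higher in the P4 list at 16 of 17 sites and the POLR3A percentile at 5 of 6, against 89.1% and 62.8% of such sites of the genome. The lists differ in length, which percentiles depend on.

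The study mapped PR and POLR3A side by side, and the sites of the 2 factors at the locus were compared. The strongest POLR3A region of the locus was inside the strongest PR region under both treatments. Its −log10 q was 24.2 under vehicle and 26.4 under P4, with fold enrichments of 9.16 and 8.70, at ranks 886 of 29161 and 808 of 47904. Its summits, at 119.701 and 119.727 kb, were 5 bp and 14 bp from the PR summits. It was the one region of the window with a POLR3A value of at least 10 in either list. Of the 1116 PR regions in the top 1% of the P4 list, 69.6% overlapped a POLR3A region under P4 and 41.4% under both treatments. The median percentile of these POLR3A regions under P4 was 83.4, against 98.3 for the region in ZBTB16.

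The other strong PR sites also carried POLR3A. All 5 PR regions of the window in the top 5% of the P4 list overlapped a POLR3A region under P4, against 40.3% of the 5559 such regions of the genome. Under vehicle it was 4 of 5, against 24.2%. Of the 5, 3 were in the top 1%, where 69.6% of the regions of the genome overlapped POLR3A under P4. The 5 were between 567 and 2698 bp wide, against a median of 288 bp for the P4 list. All 5 had a PR partner under vehicle too, as did 99.9% of those 5559. At the PR site near 103 kb the POLR3A −log10 q was 5.78 under vehicle and 7.42 under P4. Near 100 kb it was 1.73 and 5.89, and near 104 kb it was 1.83 and 6.71. The vehicle region of the last pair, with its summit at 105.033 kb, reached the PR region of the P4 list and not that of the vehicle list. The site near 106 kb had POLR3A under P4 only, with 2 regions, the higher at 4.14. Within the POLR3A lists, the site near 103 kb stood at percentiles 78.8 and 91.3. The sites near 100 and 104 kb stood at 4.53 and 6.39 in the vehicle list and at 85.8 and 89.2 in the P4 list. Over the genome, 62.8% of the 12049 sites in both POLR3A lists had the higher percentile under P4.

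Over the whole window, POLR3A and PR overlapped about as often as in the genome. Under vehicle, 5 of 12 POLR3A regions, 41.7% (95% Wilson interval 19.3 to 68.0), overlapped a PR region, against 32.3% of the list. Under P4 it was 13 of 24, 54.2% (35.1 to 72.1), against 50.5%. Both intervals contained the value of the whole list. At the 7 sites with both factors under vehicle the strongest summits were a median of 145 bp apart, and at the 11 sites under P4 89 bp. Some of these sites joined PR and POLR3A only through a region of the other treatment. Just 5 PR regions under vehicle and 10 under P4 overlapped a POLR3A region of the same treatment. For such PR regions of the whole lists, the nearest POLR3A summit was a median of 82 bp away under vehicle and 104 bp under P4. The order of the 11 sites by PR and by POLR3A was alike (Spearman's rho 0.82), and that of the 7 vehicle sites less so (rho 0.32). Both are descriptions across neighbouring sites of the same lists.

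POLR3A regions of the 2 treatments overlapped about as often as in the whole lists. Of the 24 P4 regions, 5 or 20.8% (95% Wilson interval 9.24 to 40.5) overlapped a vehicle region, against 25.8% of the list. In the other direction it was 5 of 12, 41.7% (19.3 to 68.0), against 42.0% of the list. The sites with POLR3A in both lists numbered 6 of 65, against 12049 of the 150886 merged sites of the genome. Of the 6, 5 lay between 98 and 124 kb. The exception was in NNMT, near 201 kb, with values of 3.97 under vehicle and 1.64 under P4. There the POLR3A regions of the 2 treatments did not overlap each other and were joined through PR regions. The 7 POLR3A regions of the vehicle list that overlapped no PR region of the vehicle list had −log10 q between 1.83 and 3.26, the highest at 27.803 kb. The 11 POLR3A regions of the P4 list that overlapped no PR region of the P4 list had values between 1.59 and 4.60, the highest at 92.208 kb. Some of these overlapped a PR region of the other treatment. Only 4 POLR3A regions of the vehicle list overlapped no PR region of the P4 list.

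Of the 65 merged sites, 5 were called in all 4 lists, 7.69% against 4.23% of the 150886 sites of the genome. They were the sites near 100, 103, 104 and 120 kb in ZBTB16 and the weak one near 201 kb in NNMT, where the PR values were 3.33 and 4.23. At the NNMT site the POLR3A region under P4 overlapped no vehicle region and was joined to the site through the PR region under P4. At the site near 104 kb the PR and POLR3A regions under vehicle did not overlap each other. A single list called 43 of the sites, 66.2% against 68.7% of the genome, and 30 of these had PR under P4 alone, 46.2% of all sites against 44.2% of the genome. The 7 sites with PR under both treatments and no POLR3A, 10.8% against 10.5% of the genome, included those at −41.744, 70.407, 94.985 and 138.563 kb. The site at −22.964 kb had PR under both treatments and POLR3A under vehicle only (2.62).

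By number of PR regions, ZBTB16 stood high among the 19821 protein-coding genes counted in the same way. At least 21 regions under vehicle were found at 0.832% of genes and at least 50 under P4 at 1.06%, and the median gene had 2 and 8. For POLR3A, at least 12 and 24 regions were found at 6.48% and 3.32% of genes, and the median was 2 under both treatments. ZBTB16 is a long gene, and its rank was lower per length. Per 100 kb of window, ZBTB16 had 7.07 PR regions under vehicle and 16.8 under P4, at percentiles 90.9 and 86.2 of all genes. Among 1125 genes with a window within 1.2 times that of ZBTB16, a comparison added after the values had been seen, its counts stood at percentiles 97.9 and 95.8 for PR and 94.3 and 95.2 for POLR3A.

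**Figure D4:**
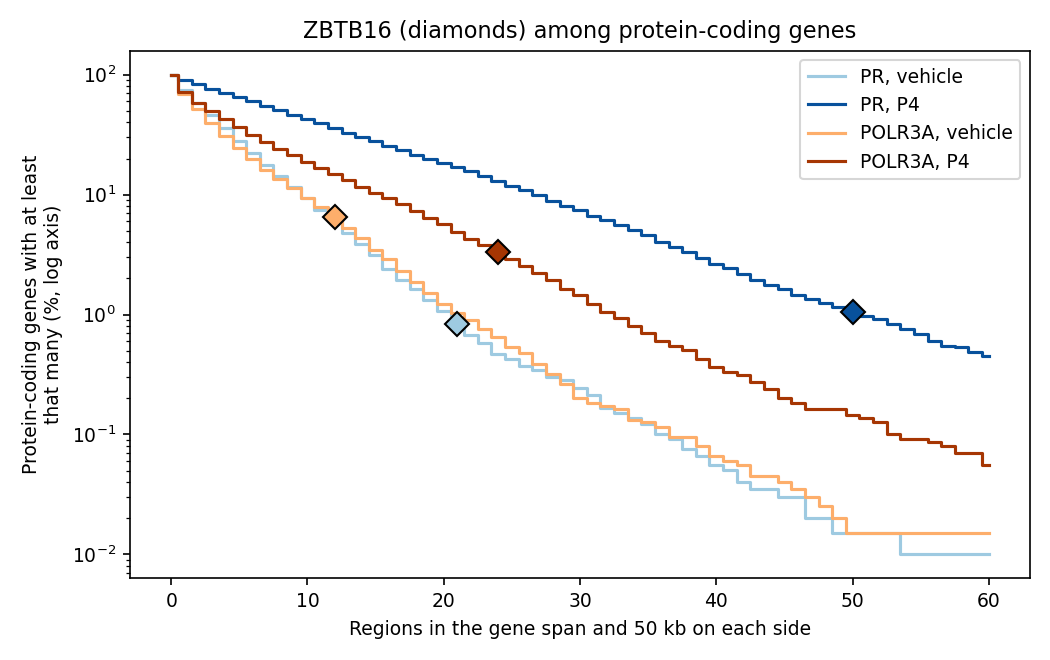
Share of protein-coding genes (percent, log axis) with at least a given number of regions in the gene span and 50 kb on each side, 1 line per list; diamonds mark ZBTB16. The diamonds stand at 21 and 50 regions for PR and at 12 and 24 for POLR3A, numbers reached by 0.832%, 1.06%, 6.48% and 3.32% of genes.

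Regions were also frequent in some bins upstream of the gene and scarce on the far downstream side. In 100-kb bins from 1 Mb upstream of the 5′ end to 1.2 Mb downstream, the bin from 100 to 200 kb had the most summits of every list, 10 and 18 for PR and 8 and 15 for POLR3A. The bin from 0 to 100 kb had 6 and 15 for PR, but 2 and 1 for POLR3A. Other bins reached 7 and 17 for PR, and their medians were 0 and 2.5. Upstream bins from −300 to −200 kb and from −800 to −700 kb had 17 and 16 PR summits under P4, while those from −1000 to −800 kb and from −600 to −300 kb had 0 to 5 under P4 and 0 or 1 under vehicle. From 400 to 1200 kb downstream, no bin had more than 1 summit in any list. Within the window, 16 of 21 PR summits under vehicle and 33 of 50 under P4 lay in the gene, 76.2% (95% Wilson interval 54.9 to 89.4) and 66.0% (52.2 to 77.6), and the gene made up 66.3% of the window's length.

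**Figure D5:**
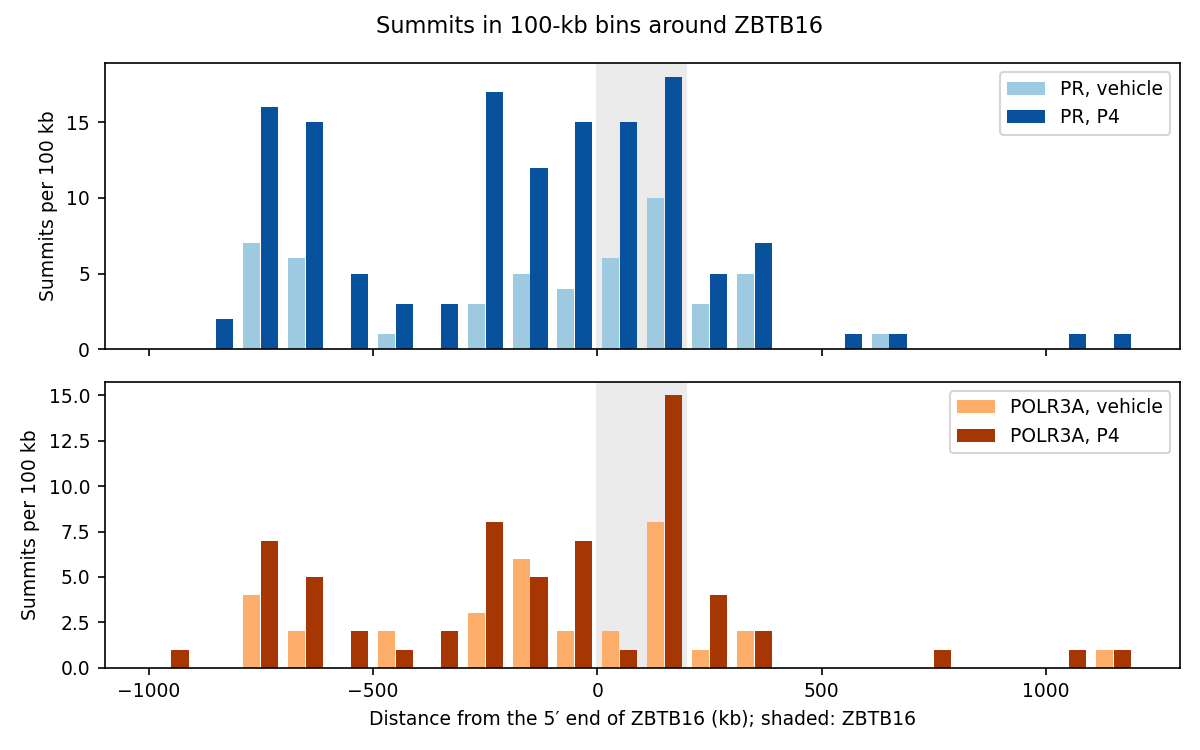
Summits per 100 kb from 1 Mb upstream to 1.2 Mb downstream of the 5′ end of ZBTB16, PR above and POLR3A below, with vehicle in light and P4 in dark bars; the shaded span is ZBTB16. The bin from 100 to 200 kb is the highest of each list, at 10, 18, 8 and 15 summits.

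The genes whose pattern was most like that of ZBTB16 were found by the distance between log2 of the regions per 100 kb plus 1 in the 4 lists, over 6246 other protein-coding genes of at least 50 kb. The nearest was JADE2, a PHD finger protein of a histone acetyltransferase complex, at a distance of 0.19, with 7.54 and 18.8 PR regions and 3.77 and 8.16 POLR3A regions per 100 kb. Then came TTC12 (0.24), which is also on chromosome 11, ZMYND11 (0.24), ST6GAL1 (0.27) and VGLL4 (0.28), while the median gene was at 4.203. The measure compares regions per length, and their number ranged from the 11 and 29 PR regions of TTC12 to the 18 and 54 of VGLL4, against 21 and 50 for ZBTB16. The highest PR −log10 q under P4 of these 5 genes was between 161.6 and 324.7, against 508.0 for ZBTB16.

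Other genes known to respond to progestins or glucocorticoids, a list of 20, gave a setting for these counts. All 20 had at least 1 PR region in the window under each treatment, against 74.6% and 90.5% of protein-coding genes. Their median was 6 PR regions under vehicle and 13.5 under P4, against 2 and 8 over all genes. GREB1, a cofactor of the oestrogen receptor, had 31 and 59 PR regions, and FKBP5, a co-chaperone of steroid receptors, had 25 and 50. These 2 were the members with at least as many PR regions as ZBTB16. NFKBIA, the gene for an inhibitor of NF-κB, followed with 13 and 28, and CCND1, the gene for cyclin D1, with 9 and 24. Per 100 kb of window, 6 of the 20 had more PR regions than ZBTB16 under each treatment, among them NFKBIA at 12.6 and 27.1 and CCND1 at 7.94 and 21.2, against 7.07 and 16.8 for ZBTB16. None of the 20 had a PR region with a −log10 q above the highest of ZBTB16 in the same list. The closest was FKBP5, at 489.4 under vehicle and 492.9 under P4. POLR3A was near 16 of the 20 under each treatment, 80.0% against 68.7% and 71.9% of all genes. FKBP5 and GREB1 were the members with more POLR3A regions under P4 than ZBTB16, 27 and 25 against 24.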

How the data were processed

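T47D cells given ethanol or P4 for 1 h were used for ChIP-seq of PR and POLR3A, with 3 libraries per group and 2 pooled inputs. The submitters' processing notes name cutadapt, Bowtie2, MACS2 and hg38. Versions, control and pooling are not given in the sources used here. The authors deposited 1 peak list per group, with a fold enrichment (a ratio) and a −log10 q per region and a score that follows −log10 q. These are peak-level values, used to describe and rank regions within a list. The lists hold no read counts, so depth is unknown. Replicate spread is not in them, and Wilson intervals cover counting error over regions only.

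Chromosomes 1 to 22 and X were analysed, with Python 3.11.15 and pandas 2.3.3. The gene table was RefSeq GRCh38.p14, with 19821 protein-coding genes after genes of alternate sequences were left out. Regions were assigned by any overlap with the gene span and 50 kb on each side, and merged into sites by 1 bp. Checked against bedtools 2.31.1, overlap counts were equal in 2 of 2 comparisons, and 600 of 600 overlaps planted in simulated data were recovered. Named regions were the 10 highest by −log10 q in each PR list, the 5 highest in each POLR3A list, those at the 5′ end and those in all 4 lists. Named genes were those in the window, the 5 nearest in pattern and up to 4 per gene list by PR regions under P4. One gene that this rule names is not reported here. The locus and the lists were chosen with earlier results of these data known. Response elements were searched in RefSeq promoters only, since a genome sequence was not used here. Promoter sequences of ZBTB16 and NNMT were not used here.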

Additional observations from a re-analysis of the deposited data

How the results depend on the processing

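No paired analysis was possible because each group has 1 list, so no replicate could be left out either. Of 64 alternative values, 22 stayed within 1.5 times a count or within the interval of a share or percentile, and the 42 that moved follow. With a −log10 q of 5 or more, counts were 11 and 18 for PR and 2 and 4 for POLR3A (vehicle and P4), and at 10 they were 8, 15, 1 and 1. Lists cut to equal length gave 17 for PR and 15 for POLR3A under P4, and the gene span alone 33 for PR under P4. The share of PR P4 regions with a vehicle partner was 22% at a reciprocal overlap of 50%, 55.6% with a −log10 q of 5 or more in both lists, 53.3% with 10 and 70.6% at equal length, against 18.6%, 33.7%, 38.2% and 55.9% of the whole list by the same rules. For POLR3A it was 50% (2 of 4) at 5 and 100% (1 of 1) at 10, against 40.3% and 67.6%. The share of POLR3A regions with PR was 16.7% under each treatment at the reciprocal overlap, against 18.8% and 26.1% of the lists, and 100% at 5 and 10 (2 of 2 and 1 of 1 under vehicle, 4 of 4 and 1 of 1 under P4), against 38.9% and 47.6% of the vehicle list and 58.3% and 62.6% of the P4 list. Under P4 it was 33.3% at equal length, against 27.1%. The percentile of ZBTB16 among genes was 99.2, 98.9, 93.5 and 96.7 (PR vehicle, PR P4, POLR3A vehicle, POLR3A P4). Per 100 kb it was 90.9, 86.2, 79.9 and 84.1, for the gene span alone 99.61, 99.25, 99.45 and 99.29, and among genes of similar window length (added after the data had been seen) 97.9, 95.8, 94.3 and 95.2. At a −log10 q of 10 it was 99.3 for PR under vehicle, and 90.1 and 91.2 for POLR3A. By fold, the strongest region stood at percentile 99.98 for PR under P4, and 98.5 and 99.2 for POLR3A. Fewer regions enter at stricter thresholds; other causes were not tested.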

Other observations

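Genes related to ZBTB16 by family or by protein contact were counted in the same way. Of 46 other genes of the BTB zinc finger family, 41 had at least 1 PR region in the window under vehicle and 44 under P4, 89.1% and 95.7% against 74.6% and 90.5% of protein-coding genes. Their median number was 4 and 12.5, against 2 and 8 over all genes, and none of the 46 reached the 21 and 50 of ZBTB16. Per 100 kb of window, 3 of the 46 under vehicle and 7 under P4 had more PR regions than ZBTB16, with ZBTB7B at 17.1 and 31.7 against 7.07 and 16.8. ZBTB38 had 18 and 45 PR regions, ZBTB3 4 and 39, ZBTB7B 20 and 37, and ZBTB7C 12 and 34. The highest PR −log10 q of ZBTB7B was 101.6 under vehicle and 314.5 under P4. POLR3A was near 39 of the 46 under each treatment, 84.8% against 68.7% and 71.9% of genes, and 4 of them had at least as many POLR3A regions under vehicle as ZBTB16.

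Among 10 genes whose proteins are known partners of ZBTB16, among them corepressors and deacetylases, 7 had PR under vehicle and 10 under P4, 70% and 100% against 74.6% and 90.5% of protein-coding genes, with medians of 2 and 6 regions, against 2 and 8 over all genes. RARA, the retinoic acid receptor gene that is fused to ZBTB16 in a rare leukaemia, had 11 and 24, SIN3A 6 and 18, and HDAC3 5 and 8.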
